A study of Homo sapiens with 24 samples.

Results

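The 10 genes described here are the Eph receptors EPHA1, EPHA2, EPHA4, EPHB2, EPHB3 and EPHB4 and the ephrins EFNA1, EFNA5, EFNB1 and EFNB2. They were taken by symbol from 60448 gene symbols in 4 deposited RNA-seq tables. The study overexpressed the wild-type kinase C-Raf in a pair of immortalized human prostate epithelial cell lines and sequenced the cells before and after they had formed tumours at distant sites in mice. BPH-1 came from benign prostatic hyperplasia and is immortalized by SV40, and RWPE-1 is immortalized by HPV18. Cells labelled vector control carried the FU-ILYW lentivirus with firefly luciferase, and cells labelled C-Raf overexpression carried the same vector with C-Raf under the Ub promoter. The BPH-1 vector and C-Raf cells also carried a secreted Gaussia luciferase, named sGluc in their labels. The labels of the BPH-1 metastasis-derived libraries do not name sGluc, and they do not say whether the sequenced C-Raf cells were the ones injected. Metastasis-derived lines were grown in culture for about a week from tumours that C-Raf cells had formed in immune-deficient NSG mice after injection into the heart, so each passed through a host and a second culture before sequencing.

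Eph receptors form the largest family of receptor tyrosine kinases, and their ligands, the ephrins, are themselves tethered to the membrane. Ephrin-A proteins are held by a lipid anchor and mostly bind EphA receptors, whereas ephrin-B proteins span the membrane and mostly bind EphB receptors, with EPHA4 able to bind both classes. Contact between cells that carry a receptor and a ligand signals in both directions and is known for setting boundaries between epithelial compartments, for repulsion between cells and for guiding axons and vessels. EPHA2 is known to be activated by EFNA1 and, when it lacks ligand, to be phosphorylated on a serine by growth factor-driven kinases.

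There were 24 libraries. BPH-1 gave 3 vector, 3 C-Raf and 6 metastasis-derived libraries, and RWPE-1 gave 1 vector, 4 C-Raf and 7 metastasis-derived libraries (2 from lymph node, 2 from spine and 3 from bone). In 21 libraries between 20570067 and 41990934 counts fell on protein-coding genes. The BPH-1 metastasis-derived libraries Bone R071, Bone R074 and Bone R075 stood apart. They held between 111159 and 464700 protein-coding counts, with 93.3% to 97.5% of their totals on RN7SL1, a small cytoplasmic RNA, and 1, 2 and 3 of the 10 genes had no count in them. These 3 libraries were kept out of the main fits, and each result that they change is also given with them. RN7SL1 took 4.60% to 30.3% of the counts of the other 3 BPH-1 metastasis-derived libraries and at most 0.00932% of the counts of any vector, C-Raf or RWPE-1 library. All BPH-1 metastasis-derived libraries came from a table of their own, so for BPH-1 the effects of tumour passage and of table cannot be told apart. The 2 libraries numbered R075 carry titles and treatment labels that name opposite sites (bone and thymus), and no result below rests on their site. CPM, the usual depth-scaled count, was taken over protein-coding genes and scaled by the trimmed mean of M values.

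All 10 genes are protein-coding. In GENCODE v29 on GRCh38, EPHA2 spans chr1:16124337-16156087, EPHA4 chr2:221418027-221574202, EPHB2 chr1:22710839-22921500, EPHB3 chr3:184561784-184582409, EFNA1 chr1:155127460-155134857 and EFNB1 chrX:68828997-68842147. Promoter sequence is shown for the 3 of the 10 genes with the greatest log2 fold change in BPH-1 metastasis-derived lines (EPHA4, EPHB3 and EFNA1) and for the only one of the 10 that was called lower there (EPHB2). Each run is the 250 bases before the RefSeq start in GRCh38.p14, written 5′ to 3′ on the strand of the gene, and capitals mark a match to a searched motif. EPHA4 lies at chr2:221574203-221574452 on the minus strand, EPHB3 at chr3:184561535-184561784, EFNA1 at chr1:155127626-155127875 and EPHB2 at chr1:22710588-22710837, these 3 on the plus strand.
EPHA4: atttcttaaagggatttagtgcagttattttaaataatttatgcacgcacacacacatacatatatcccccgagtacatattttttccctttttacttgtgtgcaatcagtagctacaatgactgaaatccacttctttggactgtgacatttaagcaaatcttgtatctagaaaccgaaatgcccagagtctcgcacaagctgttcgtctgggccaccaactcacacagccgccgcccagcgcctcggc
EPHB3: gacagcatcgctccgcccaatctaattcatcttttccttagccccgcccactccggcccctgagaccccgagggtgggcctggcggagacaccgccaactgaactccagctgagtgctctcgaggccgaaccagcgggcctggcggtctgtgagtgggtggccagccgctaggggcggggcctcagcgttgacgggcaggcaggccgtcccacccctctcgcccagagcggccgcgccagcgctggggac
EFNA1: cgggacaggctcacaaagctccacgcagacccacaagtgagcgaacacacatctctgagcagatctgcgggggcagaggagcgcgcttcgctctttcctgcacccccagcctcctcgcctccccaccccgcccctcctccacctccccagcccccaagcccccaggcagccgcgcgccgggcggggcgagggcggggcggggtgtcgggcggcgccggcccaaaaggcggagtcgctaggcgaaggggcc
EPHB2: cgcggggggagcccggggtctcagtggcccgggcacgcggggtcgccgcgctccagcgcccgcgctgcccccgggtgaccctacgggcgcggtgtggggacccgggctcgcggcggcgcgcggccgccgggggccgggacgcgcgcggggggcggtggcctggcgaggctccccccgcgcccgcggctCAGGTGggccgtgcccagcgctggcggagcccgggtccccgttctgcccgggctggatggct
The EPHA4 stretch held 43.2% G and C, against 73.2% in EFNA1, 70.0% in EPHB3 and 84.8% in EPHB2. Each of the 10 genes had a promoter entry, EPHA4 and EPHB2 had 2 each, and the 300 bases from 250 before to 50 after the start were searched on both strands. The AP-1 motif TGANTCA and the ETS motif CCGGAAG were in 0 of these 12 windows and in 7.71% and 10.3% of 35116 RefSeq promoters of that length. The E-box CAGGTG, which ZEB and SNAI factors can bind, was in windows of 3 of the 10 genes (EPHA1, EFNB2 and both windows of EPHB2) and in 20.6% of all promoters. GGAATG, the TEAD motif, was in the EPHA2 window alone and in 14.0% of all promoters. None of these motifs overlapped another in the 12 windows, and a match or its absence describes these letters only.

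EPHA2 and EFNB1 had the highest levels per kb of exon, the scale on which genes can be compared, in 5 of the 6 groups EPHA2 first and in BPH-1 metastasis-derived lines EFNB1 first (146 against 101 CPM per kb). EPHA2, which sits on chromosome 1 and shares its locus with the antisense gene EPHA2-AS1, made up 93.0% of the summed EphA level per kb in BPH-1 vector cells, 93.9% in C-Raf cells and 88.3% in metastasis-derived lines. In RWPE-1 its share of the summed EphA level was 82.2% in the vector library, 89.2% in C-Raf cells and 93.0% in metastasis-derived lines. The sources used here do not state whether counting used the strand, so reads of EPHA2 and of its antisense gene cannot be told apart. EPHB4, the receptor that pairs with EFNB2 in vessels, led the EphB class in all 6 groups, with 44.8% of its summed level in BPH-1 metastasis-derived lines and 56.1% to 76.4% elsewhere. EFNB1 led the ephrin-B class in all 6 groups, with 63.3% to 86.2% of its summed level. The ephrin-A class had no steady leader. EFNA1 led in each BPH-1 group and in RWPE-1 C-Raf cells, whereas EFNA4 led in the RWPE-1 vector library and in RWPE-1 metastasis-derived lines.

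**Figure D1:**
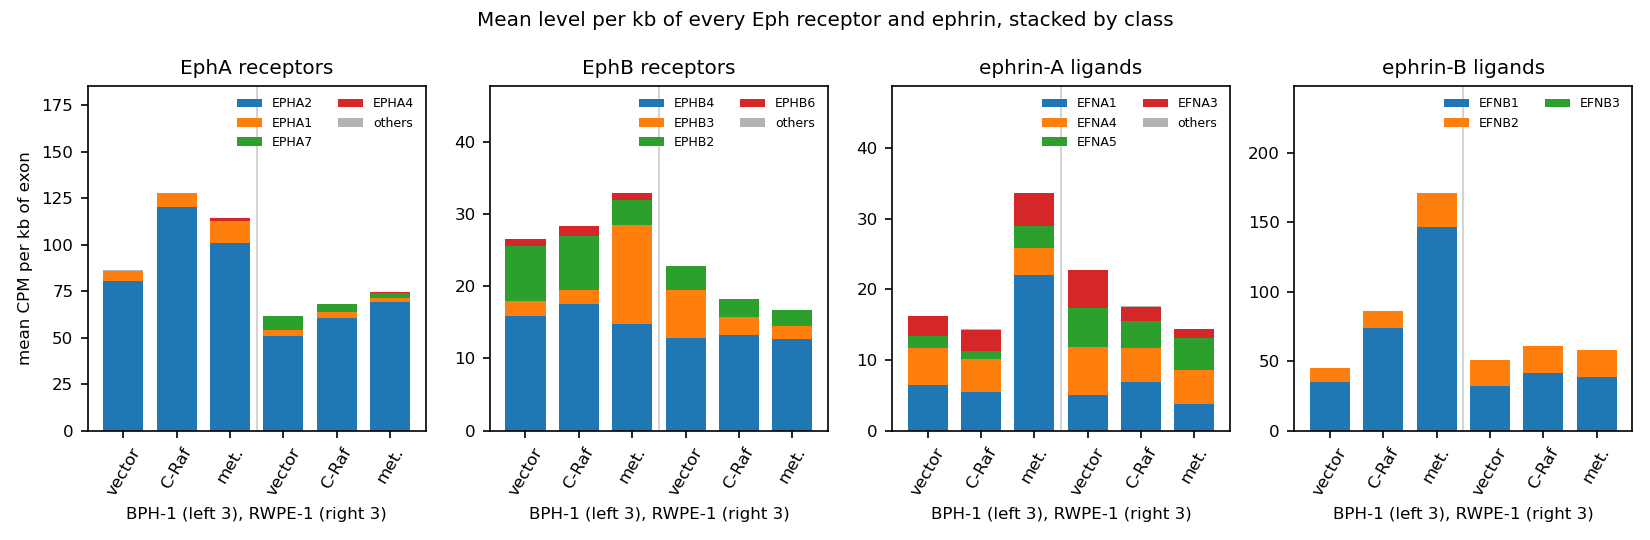
Mean level per kb of exon (CPM per kb, y axis from 0) of all 22 Eph receptors and ephrins, stacked by class, in the vector, C-Raf and metastasis-derived (met.) libraries of BPH-1 (left 3 bars of each panel) and RWPE-1 (right 3 bars), without the 3 shallow libraries. The ephrin-B stack of BPH-1 was 45.3 in vector cells, 86.2 in C-Raf cells and 171 in metastasis-derived lines (130 to 223 by library). That of RWPE-1 stayed between 50.9 and 60.8. In CPM of all counts, without trimmed mean scaling, EFNB1 averaged 301 CPM in the BPH-1 metastasis-derived lines and 273 CPM in C-Raf cells, with overlap.

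The first question was what C-Raf overexpression did to these genes before any passage through a mouse. In BPH-1, 5 of the 10 genes were higher and 3 lower in C-Raf than in vector cells, while of 13231 genes tested 59.8% passed at an adjusted p below 0.05, 30.4% higher and 29.4% lower. The same 8 genes had ranges that did not overlap between the groups, as did 65.4% of genes with a mean of at least 1 CPM in either group. The 3 libraries of each BPH-1 group lay close together (biological coefficient of variation 2.43%), and nothing in the labels says that they were separate cultures. Their p-values therefore measure the spread between these libraries, which may be technical. The median absolute log2 fold change of the 10 genes was 0.35, against 0.17 over all genes tested.

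EFNB1, a ligand of EphB receptors, moved most among the genes that rose. It was measured at 114, 117 and 116 CPM in the vector libraries and at 255, 241 and 242 CPM in the C-Raf libraries, so the groups did not overlap. The log2 fold change was 1.07 ± 0.03 (SE, n = 3 and 3, edgeR adjusted p = 1.24e-22). EPHA2 was measured at 333, 340 and 329 CPM in vector and at 519, 489 and 490 CPM in C-Raf libraries. All C-Raf values of EPHA2 lay above all vector values, a log2 fold change of 0.56 ± 0.03 (adjusted p = 1.46e-16). EPHA1, a receptor of the same class, rose by 0.43 ± 0.04 on the log2 scale, EFNB2 by 0.22 ± 0.04 and EPHB4 by 0.12 ± 0.03. The last of these rests on 103, 104 and 100 CPM in vector and 116, 111 and 112 CPM in C-Raf libraries, a 1.09-fold difference.

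EPHA4 moved most among the genes that fell. Its vector libraries held 58, 55 and 49 counts (1.48, 1.67 and 1.30 CPM) and its C-Raf libraries 15, 8 and 10 counts (0.47, 0.25 and 0.34 CPM). EPHA4 was thus scarce in both groups, and it fell by 2.07 ± 0.26 on the log2 scale (adjusted p = 1.04e-07). EFNA5, a neuronal guidance ligand, fell from 9.64, 9.41 and 9.96 CPM to 6.24, 6.24 and 6.66 CPM, and EFNA1 from 15.8, 17.4 and 15.8 CPM to 14.1, 14.6 and 12.7 CPM. Both groups stood apart without overlap for these ligands, with decreases of 0.62 ± 0.08 and 0.26 ± 0.06 on the log2 scale. EPHB2, with 93.3 to 95.4 CPM in vector and 92.2 to 96.8 CPM in C-Raf libraries, and EPHB3, with 8.68 to 9.87 and 7.99 to 8.83 CPM, overlapped between the groups. Neither passed the test (adjusted p = 0.341 and 0.0598), although EPHB3 passed when genes needed at least 10 counts in every library (adjusted p = 0.0482) and without vector replicate 2 (adjusted p = 0.025).

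In RWPE-1 the same question has 1 vector library to set against 4, and 0 of the 10 genes passed the edgeR test, where 0.396% of 13884 genes did. At an unadjusted edgeR p below 0.05 there were 2, EFNA5 and EPHB3, where 2502 of the 13884 genes had such a p. DESeq2 called 0. The single vector library lay outside the range of the C-Raf libraries for 6 genes. The share of all genes for which it did so was not computed, so this count is a description only. EPHA2 (211 CPM against 242 to 258), EFNB1 (107 against 120 to 149) and EPHA4 were lower in the vector library than in all 4 C-Raf libraries. EPHA4 had 2 counts there and 5 to 25 in the C-Raf libraries, too few for a ratio. EPHB3 (30.6 CPM against 8.07 to 15.7), EPHB2 (41.0 against 24.1 to 37.7) and EFNA5 (31.7 against 19.2 to 24.5) were higher in the vector library. In CPM of all counts, without trimmed mean scaling, EPHB2 overlapped (41.7 against 24.5 to 41.9). On that scale EPHA1 stood outside the range instead (17.592 against 12.1 to 17.585). EPHB3 had the lowest p of the 10, with a log2 fold change of -1.45 ± 0.47 (adjusted p = 0.171), and it passed only without the first C-Raf library (adjusted p = 0.0466). That library shares its table with the vector library, and the other 3 C-Raf libraries do not. With the cell line as a term and both lines together, 0 of the 10 genes passed, against 0.814% of 15239 genes, with EFNB1 nearest at a log2 fold change of 0.94 ± 0.25 (adjusted p = 0.0937). EFNB1 passed in the DESeq2 fit (adjusted p = 0.0153) and without the RWPE-1 vector library (adjusted p = 0.0031).

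**Figure D2:**
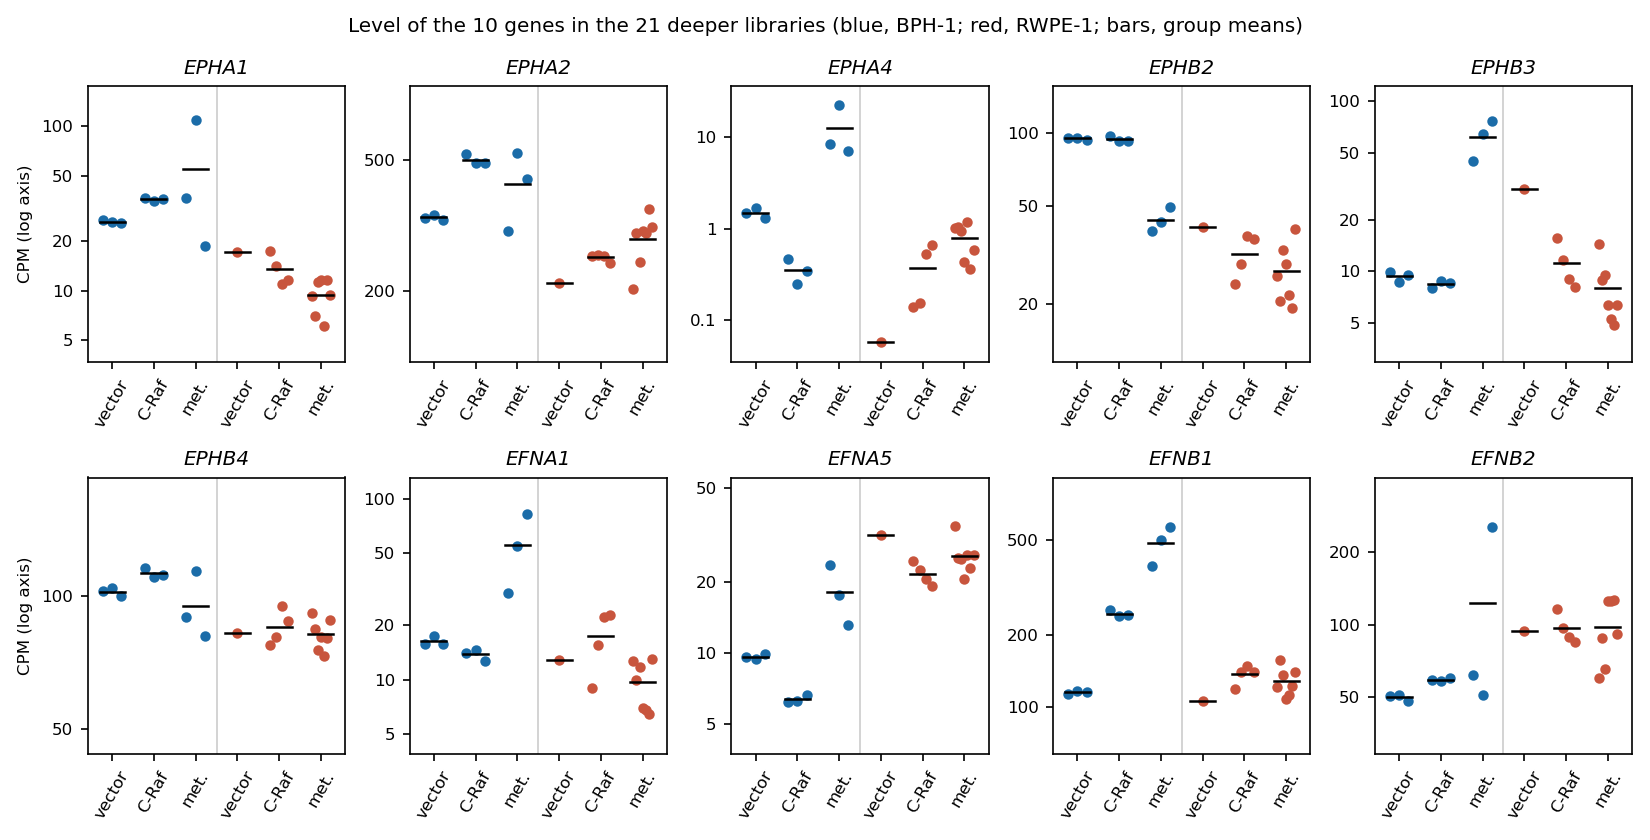
Level of each of the 10 genes (CPM, log axis) in vector, C-Raf and metastasis-derived (met.) libraries of BPH-1 (blue) and RWPE-1 (red), with 1 point per library, horizontal bars at group means and the 3 shallow libraries left out. EPHA4, EPHB3, EFNA1, EFNA5 and EFNB1 of the BPH-1 metastasis-derived lines lie above all BPH-1 C-Raf libraries and EPHB2 lies below them, while no gene separates the C-Raf and metastasis-derived libraries of RWPE-1.

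The second question was how lines grown from metastases differed from the sequenced C-Raf cells of the same cell line. In BPH-1, 5 of the 10 genes were higher and 1 was lower in the 3 deeper metastasis-derived libraries, where 37.7% of 13457 genes tested passed, 20.9% higher and 16.8% lower. The median absolute log2 fold change of the 10 genes was 1.08, against 0.72 over all genes tested. With the sign kept, the medians were 1.08 and 0.08. The same 6 genes had ranges that did not overlap between the groups, as did 60.8% of 13003 genes with a mean of at least 1 CPM in either group. The scaling bears on these ranges. In CPM of all counts, RN7SL1 included and with no trimmed mean scaling, each value of Bone R069, Bone R072 and Thymus R075 was 0.766, 0.244 and 0.854 times the value given here. On that scale EPHA4 and EPHB3 still lay above the C-Raf libraries and EPHB2 below them, whereas EFNA1, EFNA5 and EFNB1 overlapped with them and EPHA1, EPHA2 and EPHB4 lay below them. The spread bears on the p-values. The 3 C-Raf libraries, which may be technical replicates, lay far closer together than the 3 lines. Both groups were fitted with 1 spread (biological coefficient of variation 35.3%), so standard errors and p-values mix the 2. Without C-Raf replicate 1, 2 or 3, 1956, 2017 and 2093 genes passed, against 5075 with all 3. Since the C-Raf libraries serve here as the reference and above as the test group, values of each comparison are given on their own.

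EPHA4 had the largest fold change of the 10. Its counts were 15, 8 and 10 in the C-Raf libraries and 259, 294 and 198 in Bone R069, Bone R072 and Thymus R075, which are 8.41, 22.8 and 7.01 CPM. All 3 lines lay above the C-Raf libraries and above the vector libraries, at a log2 fold change of 5.22 ± 0.63 (37.4-fold, adjusted p = 0.00288). Even so, EPHA4 reached only 1.68 CPM per kb on average, against 101 CPM per kb for EPHA2 in the same lines. With the 3 shallow libraries kept, EPHA4 still passed. These libraries held 14, 2 and 0 EPHA4 counts in Bone R071, Bone R074 and Bone R075.

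EPHB3, an EphB receptor of epithelial stem cell compartments, was measured at 7.99, 8.83 and 8.55 CPM in C-Raf libraries and at 44.5, 64.2 and 77.1 CPM in the metastasis-derived lines. All 3 lines lay far above the C-Raf libraries, and the log2 fold change was 2.94 ± 0.24 (adjusted p = 0.00151). EPHB2, its close relative, went the other way. It was measured at 96.8, 92.2 and 92.2 CPM in C-Raf libraries and at 39.6, 43.3 and 49.5 CPM in the lines, and it fell by 1.02 ± 0.15 on the log2 scale (adjusted p = 0.00507). The count ratio of EPHB3 to EPHB2 was 0.0903 ± 0.00697 (SD, n = 3) in C-Raf libraries and 1.39 ± 0.232 (SD, n = 3) in the lines, against 0.0988 ± 0.00685 (SD, n = 3) in vector libraries. The 3 shallow libraries held 0 counts of EPHB2 each, which at 3 counts allows up to 12.3, 23.9 and 60.2 CPM, and this floor covers counting error only.

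Both ephrin-A genes were higher in the lines. EFNA1, the main ligand of EPHA2, was measured at 14.1, 14.6 and 12.7 CPM in C-Raf libraries and at 30.1, 55.0 and 82.1 CPM in the lines, a log2 fold change of 2.08 ± 0.36 (adjusted p = 0.00761). EPHA2 itself was measured at 303, 523 and 436 CPM in the lines against 489 to 519 CPM in C-Raf libraries, and the ranges overlapped (log2 fold change -0.18 ± 0.25, adjusted p = 0.607). The count ratio of EPHA2 to EFNA1 was 36.3 ± 2.46 (SD, n = 3) in C-Raf libraries and 8.29 ± 2.60 (SD, n = 3) in the lines. EFNA5 was measured at 6.24, 6.24 and 6.66 CPM and at 23.6, 17.6 and 13.1 CPM (log2 fold change 1.57 ± 0.26, adjusted p = 0.00682). Its order among the 3 lines was the reverse of that of EFNA1, with Bone R069 highest and Thymus R075 lowest.

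EFNB1 reached 389, 500.0 and 567 CPM in the lines from 255, 241 and 242 CPM in C-Raf libraries, a log2 fold change of 1.05 ± 0.21 (adjusted p = 0.0109). The 2 groups did not overlap, but the call was lost when any 1 of the 3 C-Raf libraries was left out, with adjusted p up to 0.0773. EFNB2, the other ephrin-B, was measured at 61.7 and 50.9 CPM in Bone R069 and Bone R072, around the C-Raf range of 58.1 to 60.2 CPM, and at 256 CPM in Thymus R075. EPHA1 likewise had a single high line, at 36.8, 109 and 18.7 CPM against 35.1 to 36.6 CPM, with Bone R072 the high one, and its mean of 55.0 CPM against 36.0 CPM turned to 23.6 against 39.9 CPM of all counts. EPHB4 was measured at 89.9, 114 and 81.2 CPM against 111 to 116 CPM and passed only without Bone R072 (log2 fold change -0.36, adjusted p = 0.018). For EFNB2, EPHA1, EPHA2 and EPHB4 the ranges overlapped and the adjusted p was 0.192, 0.403, 0.607 and 0.494.

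With the 3 shallow libraries kept, 3 of the 10 genes passed (EPHA4, EPHB3 and EFNA5), and EFNA1, EFNB1 and EPHB2 did not (adjusted p = 0.245, 0.755 and 0.107). Markers of other cell types moved in these lines too. The 8 endothelial markers summed to 2.40 to 2.78 CPM in BPH-1 C-Raf libraries and to 3.93 to 44.8 CPM in the 3 lines, with VWF at 0.66 to 0.76 and 2.02 to 37.7 CPM and ROBO4 at 0.82 to 1.15 and 1.10 to 6.27 CPM. PECAM1, CDH5, KDR, TEK and TIE1 did not exceed 0.425 CPM in the lines, where EMCN was at 0. TEK and TIE1 lay above the C-Raf range there (0.097 to 0.425 against at most 0.062 CPM, and 0.035 to 0.077 against at most 0.031 CPM). CDH5 went the other way, at 0.75 to 0.81 CPM in C-Raf libraries and at 0.21 to 0.29 CPM in the lines. The 8 fibroblast markers summed to 11.5 to 11.8 and 53.0 to 68.3 CPM, of which COL1A1 took 10.5 to 10.7 and 46.4 to 66.4 CPM. FAP was measured at 0.094 to 0.21 and 0.70 to 4.25 CPM and THY1 at 0.031 to 0.12 and 0.15 to 0.46 CPM, both without overlap. COL1A2, COL3A1, DCN and LUM did not exceed 0.49 CPM in the lines, and PDGFRB was measured at 0.59 to 0.96 and 0.78 to 1.23 CPM. The 10 epithelial markers summed to 7312 to 7464 and 11230 to 11947 CPM, and each had a mean of at least 1 CPM in both groups, but they moved in opposite directions. The basal keratin KRT14 was measured at 299 to 310 CPM in C-Raf libraries and at 2902 to 6206 CPM in the lines. KRT5, its partner, was measured at 2679 to 2742 and 3606 to 4869 CPM. These marker values also depend on the scaling. In CPM of all counts, values of Bone R072 were 0.244 times and those of C-Raf libraries 1.10 to 1.12 times the values given here. On that scale the epithelial sum and KRT5 of Bone R072 lay below the C-Raf libraries. Other marker ranges on that scale are not given here. The luminal keratins KRT8 (909 to 940 and 77.7 to 180 CPM), KRT18 (837 to 854 and 84.8 to 156 CPM) and KRT19 (738 to 764 and 172 to 376 CPM) were lower in the lines, as was EPCAM (195 to 200 and 20.3 to 90.2 CPM), all without overlap. The 7 haematopoietic markers summed to 24.4 to 27.2 and 5.88 to 21.8 CPM, nearly all from CD68. The 6 bone-forming markers summed to 11.2 to 11.7 and 5.80 to 9.53 CPM, mostly from RUNX2. In RWPE-1 each of these sums overlapped between C-Raf and metastasis-derived libraries, with fibroblast sums of 9.11 to 23.3 and 13.1 to 61.0 CPM. There CDH1 (202 to 241 and 82.3 to 171 CPM) and CLDN4 (2.49 to 5.59 and 0.892 to 2.32 CPM) were lower in the metastasis-derived libraries without overlap. The part of these markers, of RN7SL1 and of the separate table in the results on the 10 genes was not tested. In bulk libraries such as these, fewer cells of a type and less RNA per cell cannot be told apart.

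**Figure D3:**
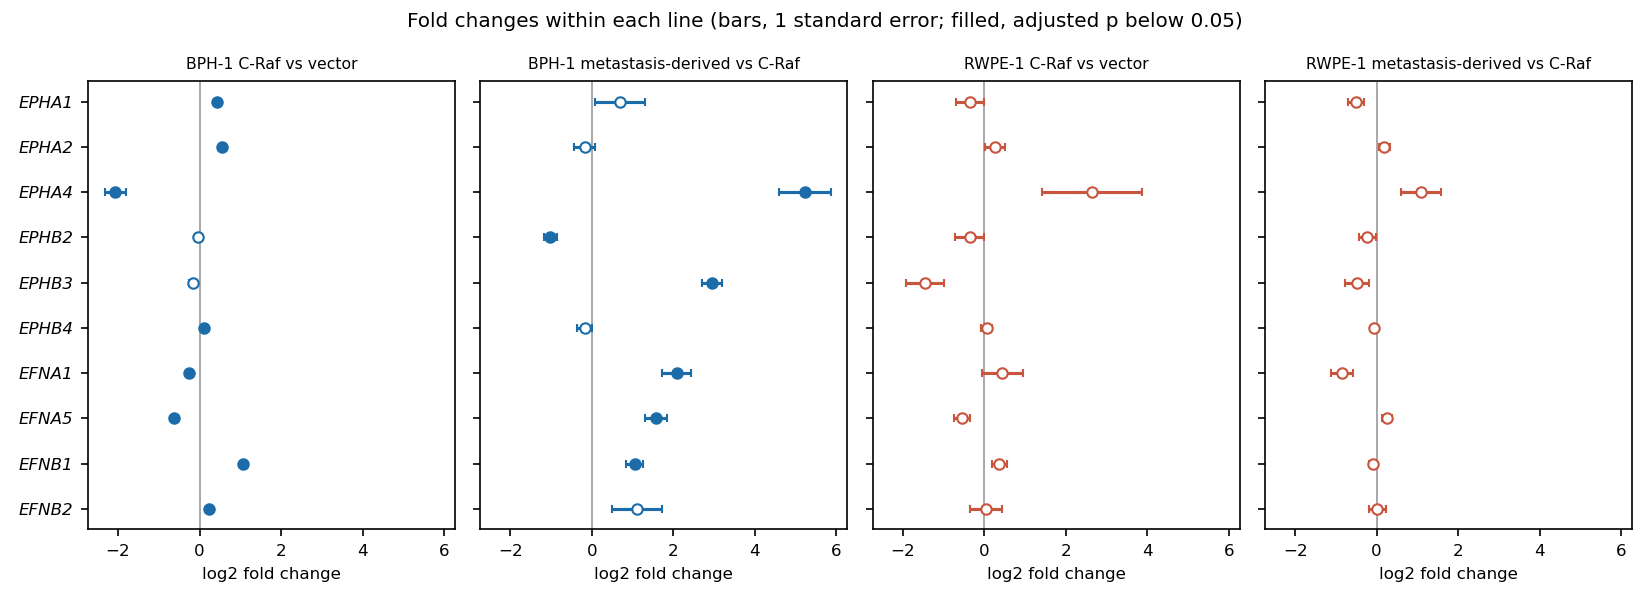
Log2 fold change (x axis) of each of the 10 genes in 4 comparisons, for BPH-1 (blue) and RWPE-1 (red), with horizontal bars of 1 standard error and filled points where the adjusted p was below 0.05. BPH-1 has 8 filled points for C-Raf against vector and 6 for metastasis-derived lines against C-Raf cells, and RWPE-1 has 0 in either, where the RWPE-1 vector group is 1 library with 2 counts of EPHA4.

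In RWPE-1, the 7 metastasis-derived libraries were set against 4 C-Raf libraries, and 0 of the 10 genes passed, where 0.0986% of 13188 genes did. The fits took the 7 as separate. Whether any of them, such as LN1A and LN1B, came from the same mouse or tumour is not known here. DESeq2 called 0 of the 10 as well. In edgeR 2 of them, EFNA1 and EPHA1, had an unadjusted p below 0.05, as did 1037 of the 13188 genes. All 10 genes overlapped between the groups, as did all but 1.71% of 12025 genes. The median absolute log2 fold change of the 10 genes was 0.24, against 0.10 over all genes tested.

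EFNA1 had the lowest p of the 10. Its C-Raf libraries measured 9.05, 15.6, 22.2 and 22.8 CPM, and its 7 metastasis-derived libraries ran from 6.47 to 12.9 CPM with a median of 9.99 CPM. The log2 fold change was -0.85 ± 0.27 (edgeR adjusted p = 0.378). The RWPE-1 libraries came in 2 tables, which here serve as the batches. In the first table, 6.47 to 6.96 CPM in 3 metastasis-derived libraries stood below 9.05 CPM in the only C-Raf library. In the second, 9.99 to 12.9 CPM in 4 stood below 15.6 to 22.8 CPM in 3, so the groups did not overlap within either table. The share of all genes that separate within both tables was not computed, and the first table has a single C-Raf library. The log2 fold change was -0.41 ± 0.13 within the first table (adjusted p = 0.158) and -0.77 ± 0.17 within the second (adjusted p = 0.307). With the table as a term it was -0.67 ± 0.13 (adjusted p = 0.0876), short of the threshold.

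EPHB3 was also read by table. In the first it was measured at 15.7 CPM in the C-Raf library and at 6.37, 5.23 and 4.86 CPM in the 3 metastasis-derived libraries, a log2 fold change of -1.51 ± 0.18 (adjusted p = 0.0413, in a fit added after the data were seen, with 1 C-Raf library that is assumed to vary like the others). In the second, 8.07 to 11.7 CPM and 6.37 to 14.6 CPM overlapped, and the log2 fold change was 0.03 ± 0.26 (adjusted p = 0.981). Whether the tables differ in this shift was not tested, and with the table as a term EPHB3 did not pass (log2 fold change -0.49 ± 0.29, adjusted p = 0.674). Among C-Raf and metastasis-derived libraries, EFNB2 followed the table more than the group. In the first table it was measured at 116 CPM in C-Raf and 125 to 127 CPM in metastasis-derived libraries. In the second it was measured at 84.6 to 96.5 CPM and 59.9 to 91.5 CPM. The vector library, also of the first table, had 93.9 CPM, within the C-Raf range of the second. By site, EFNB2 was measured at 59.9 to 88.0 CPM in the 3 bone libraries and at 91.5 to 127 CPM in the 4 lymph node and spine libraries, but all bone libraries lie in the second table with only 1 of the other 4. Table and site therefore cannot be told apart for most of these libraries.

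**Figure D4:**
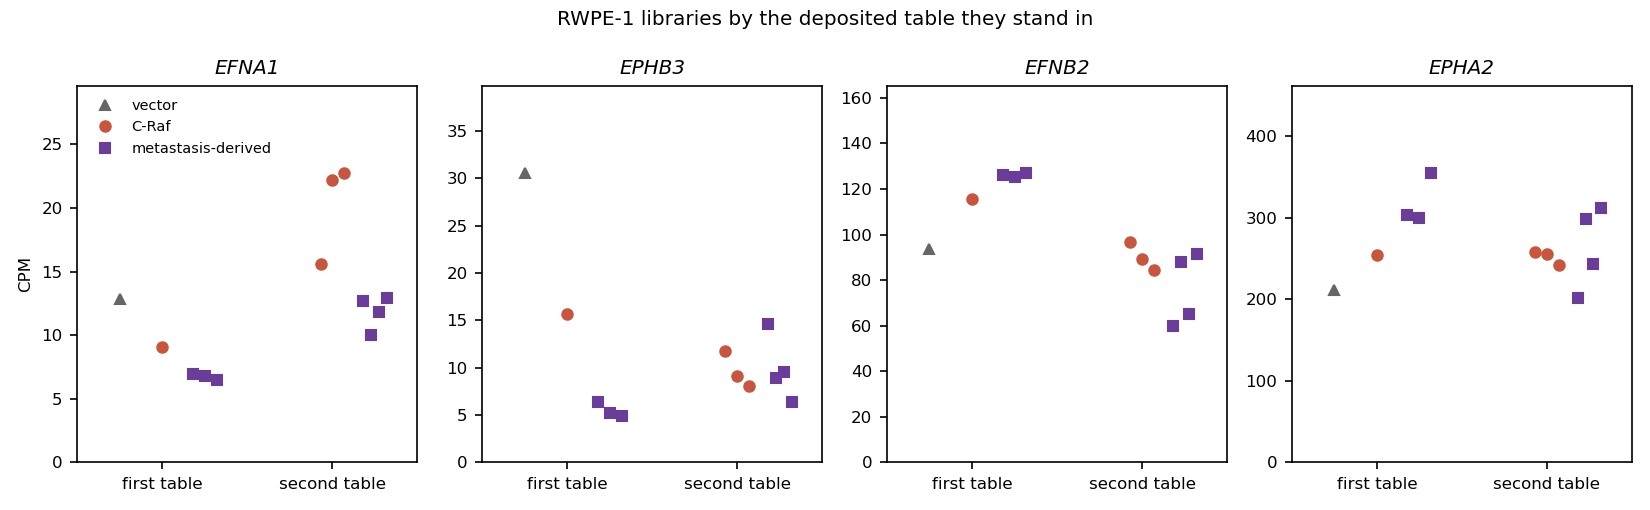
Level (CPM, y axis from 0) of EFNA1, EPHB3, EFNB2 and EPHA2 in RWPE-1 libraries by the deposited table that holds them, with 1 point per library for vector (triangle, 1 library), C-Raf (circles, 1 and 3) and metastasis-derived (squares, 3 and 4). EFNA1 of metastasis-derived libraries lies below C-Raf libraries in both tables, and EPHB3 does so in the first table only. EFNB2 of C-Raf and metastasis-derived libraries lies higher in the first table than in the second. The vector library of the first table, at 93.9 CPM of EFNB2, lies within the range of the second.

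The groups overlapped for the other genes too. EPHA2 was measured at 242 to 258 CPM in RWPE-1 C-Raf libraries and at 202 to 355 CPM in metastasis-derived libraries, EPHB4 at 77.4 to 94.9 and 73.3 to 91.7 CPM, and EFNB1 at 120 to 149 and 109 to 157 CPM. EFNA5 was measured at 19.2 to 24.5 and 20.7 to 34.6 CPM and EPHB2 at 24.1 to 37.7 and 19.2 to 40.5 CPM. In each of these 5 genes some metastasis-derived libraries lay within the C-Raf range and others outside it. EPHA1 was measured at 10.9 to 17.3 and 6.11 to 11.7 CPM (log2 fold change -0.51 ± 0.19, edgeR adjusted p = 0.507). In CPM of all counts its ranges did not overlap (12.14 to 17.59 and 6.36 to 12.10 CPM). EPHA4 stayed near the limit of detection in RWPE-1, with 5 to 25 counts in C-Raf and 16 to 48 counts in metastasis-derived libraries.

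A single fit over both lines asked whether the shift from C-Raf cells to metastasis-derived lines was the same in each, with an interaction term that 46.4% of 15239 genes passed, 24.4% greater in BPH-1 and 22.0% lower. The shift was greater in BPH-1 for EPHA4, EPHB3, EFNA1, EFNA5 and EFNB1 and lower for EPHB2, so 6 of the 10 genes passed. EPHB3 differed by 3.36 ± 0.42 on the log2 scale (adjusted p = 5.28e-06) and EFNA1 by 2.87 ± 0.45 (adjusted p = 5.4e-05). For EFNA1 the log2 fold changes were 2.08 in BPH-1 and -0.85 in RWPE-1, of which the BPH-1 value alone passed. With the shallow libraries kept, EFNB1 and EPHB2 did not pass (adjusted p = 0.381 and 0.0787), and EPHB2 did not pass without Bone R069 (adjusted p = 0.0558). Averaged over both lines, 2 of the 10 genes passed, EFNA5 (log2 fold change 0.70 ± 0.19) and EPHA4 (2.37 ± 0.63), both at an adjusted p of 0.0493, where 2.53% of 15239 genes did and 1.78% were higher. Neither passed with relative log expression size factors (adjusted p = 0.0519 and 0.0522), and the calls held in 3 and 6 of 17 fits that left out 1 library each.

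The lines also differed before any metastasis. In C-Raf cells, 2 of the 10 genes were higher in RWPE-1 than in BPH-1 and 5 were lower, where 73.8% of 13531 genes tested passed, 37.5% higher and 36.3% lower. The same 7 genes did not overlap between the lines, as 77.5% of genes did not. EFNA5 was measured at 19.2 to 24.5 CPM in RWPE-1 and at 6.24 to 6.66 CPM in BPH-1 (log2 fold change 1.76 ± 0.10), and EFNB2 at 84.6 to 116 and 58.1 to 60.2 CPM (0.70 ± 0.11). The receptors EPHA1, EPHA2, EPHB2 and EPHB4 were lower in RWPE-1, with log2 fold changes of -1.42 ± 0.15, -0.99 ± 0.06, -1.56 ± 0.16 and -0.41 ± 0.08. EFNB1 was lower as well (-0.85 ± 0.09), with 120 to 149 CPM in RWPE-1 against 241 to 255 CPM in BPH-1. EPHA4, EPHB3 and EFNA1 overlapped between the lines. BPH-1 was grown with serum and RWPE-1 in serum-free keratinocyte medium with EGF, and each stood in its own tables, so the line, the medium and the table cannot be told apart here.

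Of the 12 other Eph receptors and ephrins, 5 passed the filter on low counts in the BPH-1 comparisons and 4 in the RWPE-1 comparison of metastasis-derived lines with C-Raf cells. EPHA7 was a receptor of RWPE-1, at 54.4 CPM in the vector library, 20.3 to 38.2 CPM in C-Raf libraries and 7.74 to 59.2 CPM in metastasis-derived libraries, and it did not exceed 0.04 CPM in the deeper BPH-1 libraries. EPHB6 and EPHA10 had the opposite distribution and were near 0 in RWPE-1. In BPH-1 C-Raf against vector cells EPHB6 rose (log2 fold change 0.43 ± 0.09), EFNB3 and EPHA10 fell by 1.69 ± 0.23 and 0.97 ± 0.18 on the log2 scale, and the other 2 did not pass. In BPH-1 metastasis-derived lines EPHA10 fell by 1.98 ± 0.41 on the log2 scale and the other 4 did not pass. In both RWPE-1 comparisons 0 of these genes passed with edgeR.

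Of 50 signalling partners of Eph receptors and ephrins, 47 were tested in the BPH-1 comparisons. In C-Raf against vector cells 14 rose and 18 fell, 32 of 47 in all, against 59.8% of all genes. VAV3, an exchange factor for Rac that docks on activated Eph receptors, fell by 4.46 ± 0.34 on the log2 scale. DOCK4, another Rac activator, rose by 3.90 ± 0.09 and RASA1, a GTPase-activating protein for Ras, by 0.91 ± 0.04. In metastasis-derived lines 11 rose and 6 fell, 17 of 47 in all, against 37.7% of all genes, led by VAV3 (6.14 ± 0.70), the exchange factor KALRN (3.50 ± 0.74) and the polarity protein PARD6B (2.86 ± 0.57). In RWPE-1 metastasis-derived lines 0 of 47 passed with edgeR, and in RWPE-1 C-Raf against the vector library 0 of 48.

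The genes with the pattern most like that of EPHA2 and of its ligand EFNA1 were sought among 9835 genes over the 21 deeper libraries, by Pearson r of log2 CPM after the mean of each line was subtracted. The nearest to EPHA2 was FRMD4A (r = 0.88). The 3 nearest to EFNA1 were MOB3C, PSD4 and ATP2B4 (r = 0.92 each). These values describe libraries that share their line, table and group, and they are not a test.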

How the data were processed

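RNA-seq of cultured cells was analysed, and sequences were credited to RefSeq. The authors deposited expected counts per gene in 4 tables, made, per the submitters' notes, with cutadapt, FastQC, STAR and RSEM on hg38, with no version or annotation given in the sources used here. Labels describe mRNA library preparation from total RNA. Expected counts were rounded to whole numbers and restricted to protein-coding genes of GENCODE v29, to which 36627 symbols matched directly and 921 through a RefSeq synonym. 19237 were protein-coding. Groups came from the treatment labels. Total counts ran from 9035970 to 52851374 per library.

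Counts were filtered with filterByExpr, scaled by the trimmed mean of M values and tested with the quasi-likelihood test of edgeR 4.0.16 in R 4.3.3, with Benjamini-Hochberg adjustment over all genes tested and a threshold of 0.05. BPH-1 comparisons and the comparison of metastasis-derived with C-Raf libraries in RWPE-1 used the compared groups alone. The RWPE-1 vector comparison used all RWPE-1 groups, and pooled and interaction fits used both lines. Alternatives were other size factors and count filters, all genes, DESeq2 1.42.0, ComBat-seq of sva 3.50.0, the table as a term, a replicate block, leaving out each library and keeping the 3 shallow libraries. The fit to the first RWPE-1 table alone was added after the data were seen. Scripts were tested on simulated counts. Levels per kb were divided by merged exon length.

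The 10 genes, 12 other family members, 50 partners (49 of them in the tables), cell type markers and motifs were chosen with earlier results of these data known. All 10 genes are reported in each comparison, and partners by name where they were among the 3 with the largest absolute log2 fold change of those called. No 2 replicates agreed within sampling noise. Same-numbered BPH-1 vector and C-Raf libraries did not deviate together (r = 0.04, -0.05 and -0.04), so the numbers were not taken as pairs. The level of the overexpressed gene and some genes that the rules would name are not reported here.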

Additional observations from a re-analysis of the deposited data

Results flagged for a closer look

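For 6 of the 10 genes the shift from C-Raf cells to metastasis-derived lines differed between BPH-1 and RWPE-1 in the interaction test (edgeR, 21 libraries, Benjamini-Hochberg adjusted over 15239 genes). As BPH-1 minus RWPE-1 on the log2 scale, the shift differed by 4.05 ± 0.75 (SE) for EPHA4, 3.36 ± 0.42 for EPHB3, 2.87 ± 0.45 for EFNA1, 1.26 ± 0.23 for EFNA5, 1.08 ± 0.18 for EFNB1 and -0.85 ± 0.29 for EPHB2. The BPH-1 lines stood in a table of their own with 4.60% to 30.3% of counts on RN7SL1, and the part of this in the differences was not tested. A test for a single library far from the rest was applied only to groups of 4 or more deeper libraries. It thus covered the 10 genes in the RWPE-1 C-Raf and metastasis-derived groups alone. Of these 20 sets of 4 or 7 libraries, 0 had such a library. The BPH-1 groups were not tested in this way, and there EFNB2 had a single high line in Thymus R075 (256 CPM against 61.7 and 50.9 CPM) and EPHA1 in Bone R072 (109 CPM against 36.8 and 18.7 CPM).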

How the results depend on the processing

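The calls on the 10 genes in BPH-1 C-Raf against vector cells rest on the spread between 3 libraries a group, and those in BPH-1 metastasis-derived lines on 3 lines from a separate table. Depth limits EPHA4 in RWPE-1 and all genes in the 3 shallow libraries. Levels of the 10 genes depend on the scale. Of 50 gene and group means, 26 moved by more than 1 SD in CPM of all genes without TMM scaling (0.430 to 1.17 times) and 23 with the longest transcript as length (1.00 to 1.41 times). Without TMM scaling the direction of the means turned for EPHA1 in BPH-1 metastasis-derived lines and for EFNB2 in RWPE-1 metastasis-derived lines (97.6 against 96.5 to 102 against 103 CPM), EFNA1, EFNA5 and EFNB1 overlapped between BPH-1 lines and C-Raf cells, and EPHB2 and EPHB3 of BPH-1 C-Raf cells lay below vector cells without overlap. On that scale EPHA1 of RWPE-1 metastasis-derived libraries lay below C-Raf libraries without overlap. Against the RWPE-1 vector library, EPHB2 of C-Raf libraries then overlapped and EPHA1 lay below it.

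With the replicate block, BPH-1 C-Raf against vector cells gave 7682 genes, 3885 higher and 3797 lower, and 8 of the 10 genes, as without it. The replicate numbers are not pairs.

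With the 3 shallow libraries kept, BPH-1 metastasis-derived lines gave 3 of the 10 genes and 2102 genes in all, the pooled C-Raf comparison 37 genes, and the pooled metastasis comparison 0 of the 10, with EPHA2 at -0.039. A minimum of 10 counts in each library gave 5 genes in RWPE-1 metastasis-derived lines, 68 in the pooled C-Raf and 17 in the pooled metastasis comparison. EPHA4 did not reach this minimum in each of these comparisons and was not tested under it. The pooled metastasis comparison then had 0 of the 10 genes, as also with relative log expression size factors and with no count filter. With all genes of the tables, the RWPE-1 metastasis comparison gave 20 and the pooled 1781 genes, with EPHA2 at -0.045. DESeq2 gave 168 genes in RWPE-1 metastasis-derived lines, 811 in RWPE-1 C-Raf against vector, 458 with 1 of the 10 genes in the pooled C-Raf and 947 in the pooled metastasis comparison. RWPE-1 vector and C-Raf libraries alone gave 0 genes. ComBat-seq put EPHA4 at -0.075 in the pooled C-Raf comparison.

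In RWPE-1 metastasis-derived lines the first table alone gave 1 of the 10 genes (EPHB3), 181 genes in all, EFNA5 at -0.070 and EPHB4 at 0.024. The second gave 2 genes, EFNB2 at -0.24 and EPHB3 at 0.028. The table as a term gave EFNB2 at -0.13 there, and EFNA1 at -0.31 and EPHB4 at -0.045 in RWPE-1 C-Raf against vector. For these alternatives the cause was not tested.

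Leaving out 1 library at a time gave between 1956 (without BPH-1 C-Raf replicate 1) and 8312 genes (without Bone R072) in BPH-1 metastasis-derived lines, with EPHA1 between -0.33 and 1.10 and EPHA2 between -0.39 and 0.016. RWPE-1 metastasis-derived lines gave 4 to 40 genes, EFNB2 -0.054 to 0.12 and EPHB4 -0.10 to 0.00089. RWPE-1 C-Raf against vector gave 0 to 1 of the 10 genes, 18 to 1447 genes in all (the most without the first C-Raf library) and EFNB2 at -0.053 to 0.10. The pooled C-Raf comparison gave 0 to 1 of the 10, 38 to 287 genes (the most without the RWPE-1 vector library), EPHA4 -0.27 to 0.72 and EPHB3 -0.71 to 1.39. The pooled metastasis comparison gave 0 to 2 of the 10, 103 to 486 genes, EFNA1 -0.059 to 0.36, EFNB2 -0.010 to 0.49, EPHA1 -0.49 to 0.018 and EPHA2 -0.011 to 0.11. Between the lines EPHA4 ran from -0.37 to 0.33, and the interaction of EFNB2 from -0.080 to 1.42. These values are log2 fold changes.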
